A study of Mus musculus with 21 samples.

Results

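Interleukin-2 (IL-2) and the chains of its receptor were followed as 4 genes, Il2, Il2ra, Il2rb and Il2rg, which were chosen by name. All 4 were found in the deposited log2 table of 15249 genes and, by the same Ensembl identifiers, in the deposited count table of 47643 genes, and all passed the filter on low counts. RNA was measured by 3′ mRNA sequencing in 21 libraries of splenic CD4+ T cells sorted from Tg4 Nr4a3-Tocky Il10-GFP mice (strain label Tg4 Tiger Nr4a3-Tocky). The 7 groups held 3 mice each. Control mice were not immunised. The other 6 groups were given 0.8 µg (low dose) or 80 µg (high dose) of [4Y] MBP peptide under the skin and sampled after 4 h, 12 h or 24 h. Every group carried the same 3 genetic elements. Tg4 is a transgenic T cell receptor (TCR) for a peptide of myelin basic protein, so that nearly all CD4+ T cells share 1 specificity. Nr4a3-Tocky is a Timer protein that is blue when new and red when mature and is made when TCR signalling turns on Nr4a3. Il10-GFP reports transcription of Il10. The study states that no adjuvant was given. Its methods state that mice of both sexes were used. They also state that the gate took Blue+Red- cells at 4 h, Blue+Red+ cells at 12 h and, at 24 h, cells that were Blue-Red+. The gate therefore changed with time, and an effect of time cannot be told apart from an effect of the gate. The gate of the control cells and the age of the mice are not given in the sources used here.

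IL-2 is the growth factor that T cells make and read themselves. TCR signals acting through NFAT, AP-1 and NF-κB factors switch on Il2 and also Il2ra, which encodes CD25, the α chain that raises the affinity of the receptor but carries no signal of its own. Il2rb encodes the β chain, which IL-15 also uses, and Il2rg encodes the common γ chain, which is shared with the receptors for IL-4, IL-7, IL-9, IL-15 and IL-21. The β and γ chains carry the kinases JAK1 and JAK3 and act through STAT5. Regulatory T cells hold high levels of CD25 and make little IL-2.

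On GRCm38, Il2 (ENSMUSG00000027720) lies at chr3:37120523-37125959 on the minus strand, and Il2ra (ENSMUSG00000026770) at chr2:11642807-11693193 on the plus strand. Il2rb (ENSMUSG00000068227) lies at chr15:78479256-78495271 and Il2rg (ENSMUSG00000031304) at chrX:101264378-101268255, both on the minus strand. Il2 overlaps Adad1 and Il2ra overlaps Gm37881, with no exon of either pair in common. An exon of Il2rg overlaps Gm20489 on the same strand, a gene that had 1 count in all libraries together.

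The promoters are shown because NFAT, AP-1 and NF-κB factors act on Il2 and Il2ra in activated T cells, and because Il2 and Il2ra differed most between the doses among the 4 genes at 4 h and 12 h. The 250 bases before the transcription start of 3 of the 4 genes were taken from RefSeq (GRCm38.p6) and are written 5′ to 3′ along the gene. Capitals mark the matches to GGAAA, the core read by NFAT factors (TTTCC on the other strand), and in Il2ra also the match to GGGNNTTNC, the letters of an NF-κB site.

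Il2, chr3:37125955-37126204, minus strand: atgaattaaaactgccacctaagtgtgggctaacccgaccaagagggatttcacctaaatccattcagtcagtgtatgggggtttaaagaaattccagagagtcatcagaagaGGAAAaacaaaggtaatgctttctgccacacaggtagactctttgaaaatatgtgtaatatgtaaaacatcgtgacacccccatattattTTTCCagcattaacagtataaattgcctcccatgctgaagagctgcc

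Il2ra, chr2:11642542-11642791, plus strand: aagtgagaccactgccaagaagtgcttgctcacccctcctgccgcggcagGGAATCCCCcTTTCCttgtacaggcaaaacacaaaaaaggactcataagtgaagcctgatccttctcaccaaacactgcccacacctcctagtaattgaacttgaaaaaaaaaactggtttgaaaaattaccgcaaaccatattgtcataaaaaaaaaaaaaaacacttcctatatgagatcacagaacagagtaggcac

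Il2rg, chrX:101268256-101268505, minus strand: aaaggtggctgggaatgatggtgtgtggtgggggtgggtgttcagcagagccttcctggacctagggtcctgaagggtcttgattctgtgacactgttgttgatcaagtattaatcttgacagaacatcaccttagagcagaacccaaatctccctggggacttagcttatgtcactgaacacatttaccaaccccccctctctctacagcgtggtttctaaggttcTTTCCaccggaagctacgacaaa

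Both strands were searched. Counted from the RefSeq start, with -1 as the last base before it, GGAAA matched from -137 to -133 and from -47 to -43 in Il2, from -190 to -186 in Il2ra and from -23 to -19 in Il2rg. At least 1 such match was present in 55.6% of 32851 promoters of the same length, and at least 2 in 21.4%. The NF-κB letters matched in Il2ra from -200 to -192, next to but not overlapping the NFAT core, and were present in 13% of promoters. They had no match in the windows of Il2 and Il2rg, which does not show that no NF-κB site with other letters is there. AP-1 (TGANTCA, in 6.75% of promoters), GAS (TTCNNNGAA, the form read by STAT5, in 7.02%) and octamer letters (ATGNAAAT, in 5.03%) had no match in these 3 windows, which says only that these letters are not in them.

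Library totals ranged from 2352800 to 6244279 counts, and the most counted gene, Gm42418, took 17% to 27.8% of them. All 6 markers of CD4+ T cells, Cd4 and CD3 chains among them, were detected in every group. Their summed level ranged from 1807 to 1921 CPM (counts scaled to a common library total) in the control and from 535.6 to 577.6 CPM at 4 h after the high dose, the lowest group. Over all libraries, the 4 NK cell markers summed to between 0 and 5.015 CPM, Cd8a with Cd8b1 to between 13.12 and 51.26 CPM, and the 8 markers of myeloid and dendritic cells to between 2.769 and 32.04 CPM. The 6 B cell markers summed to 37.83 to 80.62 CPM in the control and to between 2.033 and 42.36 CPM in the immunised libraries. In such bulk samples, fewer cells that make an RNA and less of that RNA per cell cannot be told apart.

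The first question was how each gene moved from the control after either dose. Levels are normalised counts, that is counts divided by the size factor of the library, and differences are shrunken log2 fold changes with their standard error (SE). Genes with a fold change above 2 in either direction (log2 above 1) and an adjusted p (Benjamini-Hochberg) under 0.05 were called. Il2 rose steeply at 4 h and was back at the control level at 24 h, Il2ra and Il2rb were above the control at every time, and Il2rg was called only at 12 h after the high dose, where it was lower.

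Il2 was hardly detected in the control, with 4.12, 5.07 and 8.57 normalised counts, which rest on 4, 5 and 6 reads. At 4 h, the low dose gave 169, 191 and 106 normalised counts and the high dose 2020, 1320 and 1200. Each of the 6 libraries at 4 h was above each control library, and each high dose library was above each low dose library. Against the control, the 4 h difference in log2 was 4.46 ± 0.45 (SE, adjusted p = 3.68e-20) for the low dose and 7.67 ± 0.45 (adjusted p = 7.44e-57) for the high dose. At 12 h, the low dose libraries had 10.8, 22.6 and 21.1 normalised counts of Il2 and the high dose libraries had 60.3, 97.6 and 67.1. Neither dose overlapped the control, and Il2 was called higher after the low dose (log2 difference 1.48 ± 0.48, adjusted p = 0.00429) and after the high dose (3.45 ± 0.46, adjusted p = 1.54e-12). At 24 h, Il2 had 2.92, 3.73 and 11.4 normalised counts after the low dose and 6.57, 6.62 and 3.08 after the high dose. These ranges overlapped with the control. The log2 difference from control at 24 h was 0.02 ± 0.53 (adjusted p = 0.965, 95% interval -1.14 to 1.23 before shrinkage) for the low dose and -0.15 ± 0.52 (adjusted p = 0.896, interval -1.29 to 1.04) for the high dose. With 3 to 11 reads per library behind these levels, the intervals still hold differences of about 1 in log2 either way, so a smaller difference was not detectable at this depth.

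Il2ra, the α chain, had 76.3, 25.4 and 50 normalised counts in the control. At 4 h it had 1340, 1630 and 998 after the low dose and 4310, 4200 and 4110 after the high dose. The high dose libraries lay close together, and all of them were above the low dose libraries, which were more spread. The log2 difference from control at 4 h was 4.62 ± 0.25 (adjusted p = 1.83e-71) for the low dose and 6.27 ± 0.25 (adjusted p = 3.38e-131) for the high dose. At 12 h, Il2ra had 826, 1100 and 736 normalised counts after the low dose and 1990, 2010 and 1900 after the high dose, again with no overlap between doses. It remained above the control by 4.05 ± 0.25 (adjusted p = 4.35e-55) and 5.19 ± 0.25 (adjusted p = 7.73e-90) in log2. At 24 h, when Il2 was at its control level, Il2ra still had 215, 265 and 307 normalised counts after the low dose and 324, 305 and 312 after the high dose. Every 24 h library was above every control library, with log2 differences of 2.32 ± 0.26 (adjusted p = 7.23e-18) and 2.57 ± 0.26 (adjusted p = 3.84e-22). The doses overlapped at 24 h.

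Markers of regulatory T cells moved at the same time. Foxp3, the factor that defines these cells, ranged from 4.27 to 16.9 CPM in the control, from 0.574 to 1.84 CPM and from 3.85 to 5.77 CPM at 4 h after the low and the high dose, from 0.957 to 6.33 CPM and from 5.05 to 8.68 CPM at 12 h, and from 12.6 to 55.3 CPM and from 20.2 to 25.5 CPM at 24 h. All 6 of 6 regulatory T cell markers were detected in every group, and their summed level was 112.9 to 179.7 CPM in the control, 181.9 to 190.4 CPM and 247.5 to 342.4 CPM at 4 h after the low and the high dose, 231.6 to 346.5 CPM and 264 to 290.9 CPM at 12 h, 449.9 to 811.9 CPM at 24 h after the low dose and 281.2 to 348 CPM at 24 h after the high dose. Most of the sum at 24 h after the low dose was Ikzf2, with 302 to 541 CPM against 42.4 to 83.4 CPM in the control, while Foxp3 overlapped the control there. At 24 h after the high dose, Foxp3 was above every control library, as was Il2ra. Ctla4 and Tnfrsf18 of this list are also made by other activated T cells. The markers did not move alike. At 4 h after the low dose, Foxp3, Ikzf2, Ikzf4 and Ctla4 were below every control library, while Lrrc32 (16.6 to 24.3 CPM against 0.425 to 3.08 CPM in the control) and Tnfrsf18 (140 to 152 CPM against 35.4 to 39.4 CPM) were above. The part of regulatory T cells in the Il2ra level was not tested at any time.

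Il2rb, the signalling β chain, had 85.6, 45.6 and 95.6 normalised counts in the control. At 4 h it had 200, 250 and 163 after the low dose and 436, 531 and 560 after the high dose, so that neither dose overlapped the control or the other dose. At 12 h it had 795, 837 and 800 after the low dose and 741, 860 and 924 after the high dose. The doses overlapped at 12 h, which was the highest level of Il2rb after either dose. At 24 h it had 383, 374 and 459 after the low dose and 520, 601 and 656 after the high dose, both above the control and without overlap. Against the control, Il2rb was called higher in all 6 groups. The smallest log2 difference was 1.43 ± 0.19 at 4 h after the low dose (adjusted p = 1.76e-13) and the largest was 3.47 ± 0.18 at 12 h after the high dose (adjusted p = 3.35e-80). The others were 3.41 ± 0.18 and 2.42 ± 0.18 at 12 h and 24 h after the low dose, and 2.75 ± 0.18 and 2.96 ± 0.18 at 4 h and 24 h after the high dose. NK cells and CD8+ T cells also make this chain, and the sort for CD4+ T cells is meant to leave them out. Of the 2 CD8+ T cell markers, Cd8a ranged from 14.3 to 17.8 CPM at 12 h after the low dose, where Il2rb was near its highest level, against 0.615 to 2.98 CPM in the control, and from 0.807 to 1.74 CPM at 12 h after the high dose. Cd8b1, the more abundant of the 2, ranged from 29.3 to 33.5 CPM at 12 h after the low dose and overlapped the control at 30.5 to 44.6 CPM. Cd8a and Cd8b1 together summed to 43.6 to 51.26 CPM and 13.12 to 22.65 CPM at 12 h after the low and the high dose and to 31.08 to 47.6 CPM in the control. The 4 NK cell markers summed to 3.889 to 5.015 CPM at 24 h after the low dose, with Klrb1c from 2.07 to 4.49 CPM, against 0.305 to 1.846 CPM in the control. In the other 5 immunised groups this sum ranged from 0 to no more than 1.817 CPM, and Ncr1 was at 0 in all libraries of 4 of the 6 immunised groups. The part of NK cells and CD8+ T cells in the Il2rb level was not tested.

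Il2rg, the common γ chain, was well expressed without immunisation, with 1220, 1070 and 1030 normalised counts in the control. At 4 h it had 1570, 1830 and 1720 after the low dose and 1030, 1070 and 960 after the high dose. The low dose libraries were all above the control, while the high dose libraries overlapped it. The log2 difference from control was 0.62 ± 0.11 for the low dose (adjusted p = 4.14e-08, under the fold threshold) and -0.12 ± 0.11 for the high dose (adjusted p = 0.34). At 12 h, Il2rg had 646, 599 and 564 normalised counts after the low dose and 432, 448 and 516 after the high dose, all below every control library. Il2rg was called lower after the high dose, with a log2 difference of -1.25 ± 0.11 (adjusted p = 3.82e-28), while the difference after the low dose was -0.88 ± 0.11 (adjusted p = 1.52e-14) and did not reach the fold threshold. At 24 h it had 910, 934 and 871 after the low dose and 1180, 900 and 1210 after the high dose. The low dose libraries lay just below the control, with a log2 difference of -0.29 ± 0.11 (adjusted p = 0.0225, not called), and the high dose libraries overlapped it at -0.02 ± 0.11 (adjusted p = 0.925). B cells also make the γ chain, and the sort for CD4+ T cells is meant to leave them out. Their 6 markers summed to 37.83 to 80.62 CPM in the control. At 4 h the sum was 13.2 to 31.87 CPM after the low dose and 10.77 to 15.32 CPM after the high dose. At 12 h these were 6.7 to 42.36 CPM and 2.033 to 19.6 CPM. At 24 h they were 26.98 to 36.34 CPM and 7.527 to 15.99 CPM. The part of B cells in the Il2rg level was not tested at any time.

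**Figure D1:**
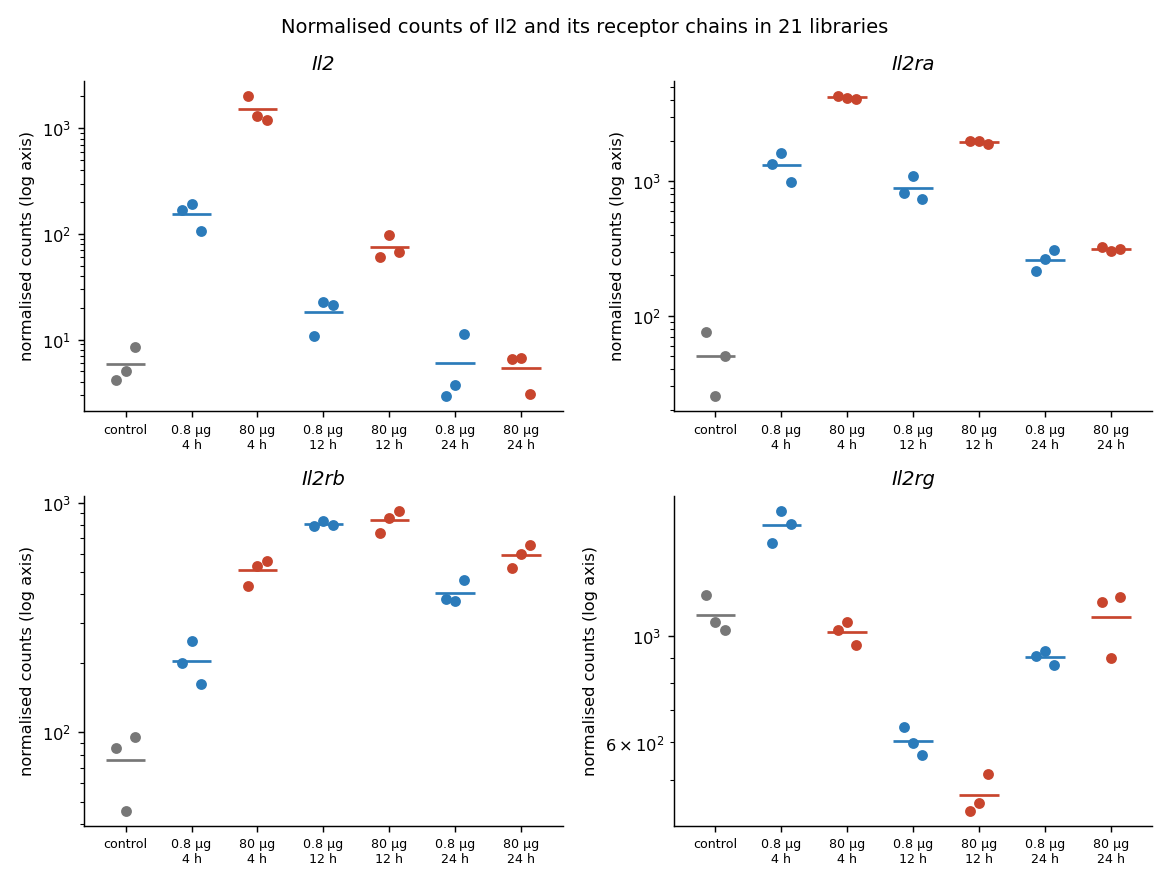
Normalised counts (log axis) of Il2, Il2ra, Il2rb and Il2rg in all 21 libraries, by group. Points are libraries and lines are group means. Il2 is highest at 4 h after the high dose (1200 to 2020) and at its control level at 24 h, Il2rb is highest at 12 h, and Il2rg is lowest at 12 h.

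Large parts of the transcriptome moved with immunisation, and the members are to be read against that. After the low dose, 3 of the 4 genes were called at 4 h, where 40.7% of all genes tested were called, 3 of 4 at 12 h (37.7% of all genes) and 2 of 4 at 24 h (17.3%). After the high dose, 3 of 4 were called at 4 h (43.5% of all genes), 4 of 4 at 12 h (37.9%) and 2 of 4 at 24 h (20.2%). The 6 comparisons share the control libraries. The study placed Il2 and Il2ra in a module of activated genes from these same samples, and Il2ra also in an activation score, so that their direction is not independent evidence.

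**Figure D2:**
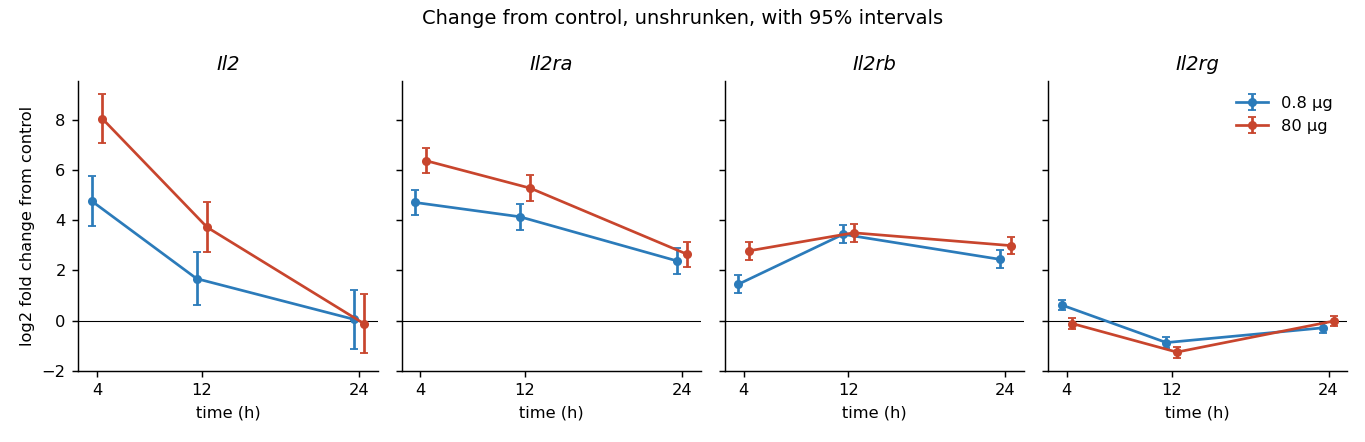
Difference from control (log2, before shrinkage) of the 4 genes against time (h) after the low and the high dose, with 95% intervals from DESeq2. Il2 and Il2ra are highest at 4 h and lowest at 24 h, Il2rb is highest at 12 h, and Il2rg is lowest at 12 h after either dose.

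Ordered by mean level, Il2 ran from 1510 ± 439 normalised counts (SD, n = 3) at 4 h after the high dose through 155 ± 44.2 at 4 h after the low dose, 75 ± 19.9 and 18.2 ± 6.43 at 12 h after the high and the low dose, to 6 ± 4.65, 5.92 ± 2.34 and 5.43 ± 2.03 in the low dose 24 h, control and high dose 24 h groups. The last 3 did not differ beyond their spread, and the libraries of the low dose groups at 12 h and 24 h overlapped. Il2ra ran from 4210 ± 99.7 (4 h, high dose) through 1970 ± 56.4 (12 h, high dose), 1320 ± 317 (4 h, low dose), 887 ± 189 (12 h, low dose), 314 ± 9.58 and 262 ± 45.8 (24 h, high and low dose) to 50.5 ± 25.5 in the control. Each step of this order was larger than the larger SD of the pair, but the libraries of the low dose groups at 4 h and 12 h overlapped, as did those of the 24 h groups. Il2rb was highest at 12 h, with 842 ± 93.1 and 811 ± 23.1 after the high and the low dose, which did not differ beyond their spread. Then came 592 ± 68.3 (24 h, high dose), 509 ± 64.6 (4 h, high dose), 405 ± 47 (24 h, low dose), 204 ± 43.8 (4 h, low dose) and 75.6 ± 26.4 (control), where the libraries of the high dose at 4 h overlapped with those of both 24 h groups. Il2rg was highest at 4 h after the low dose (1710 ± 127), followed by the control (1110 ± 99.7), 24 h after the high dose (1100 ± 172) and 4 h after the high dose (1020 ± 55.2), which did not differ beyond their spread. Its lower levels were 905 ± 31.8 (24 h, low dose), 603 ± 41.4 (12 h, low dose) and 465 ± 44.7 (12 h, high dose), each apart from its neighbour.

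The doses were then compared with each other at each time, within the same Timer gate. At 4 h, Il2, Il2ra and Il2rb were all higher after the high dose and Il2rg was lower. Il2 differed by 3.21 ± 0.33 in log2 (1510 against 155 normalised counts, adjusted p = 1.07e-19), Il2ra by 1.65 ± 0.23 (4210 against 1320, adjusted p = 1.74e-11) and Il2rb by 1.31 ± 0.16 (509 against 204, adjusted p = 6.48e-14). Il2rg differed by -0.74 ± 0.11 (1020 against 1710, adjusted p = 2.86e-10), which is under the fold threshold, although the libraries of the 2 doses did not overlap. Thus 3 of the 4 genes were called at 4 h, where 635 of 10848 genes tested (5.85%) were called.

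At 12 h, the cytokine and its α chain still differed between doses and the β chain did not. Il2 was higher after the high dose by 1.97 ± 0.38 in log2 (75 against 18.2 normalised counts, adjusted p = 1.68e-05) and Il2ra by 1.13 ± 0.23 (1970 against 887, adjusted p = 3.66e-05). The Il2rb difference was 0.05 ± 0.15 (adjusted p = 0.924), and its 95% interval of -0.25 to 0.35 leaves out the size seen at 4 h. Il2rg differed by -0.37 ± 0.11 (465 against 603, adjusted p = 0.0198), again without overlap but under the fold threshold. In all, 2 of the 4 genes were called at 12 h, against 311 of 11145 genes tested (2.79%).

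At 24 h, DESeq2, edgeR and limma each called 0 of the 4 genes, against 151 of 9663 genes tested with DESeq2 (1.56%). Il2ra differed by 0.26 ± 0.23 (314 against 262, adjusted p = 0.656, 95% interval -0.20 to 0.72) and Il2 by -0.17 ± 0.51 (adjusted p = 0.927, interval -1.30 to 0.95). Il2rb was higher after the high dose in every library, with 592 against 405 normalised counts, a log2 difference of 0.55 ± 0.16 and an adjusted p of 0.0124, which is under 0.05 but short of the fold threshold. Il2rg had 1100 against 905, a log2 difference of 0.28 ± 0.11 (adjusted p = 0.116), with overlapping libraries. With no adjustment, 2 of the 4 genes, Il2rb and Il2rg, had a DESeq2 p under 0.05 at 24 h. The share of all genes under that unadjusted limit was not computed, so this count has no background to be read against.

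**Figure D3:**
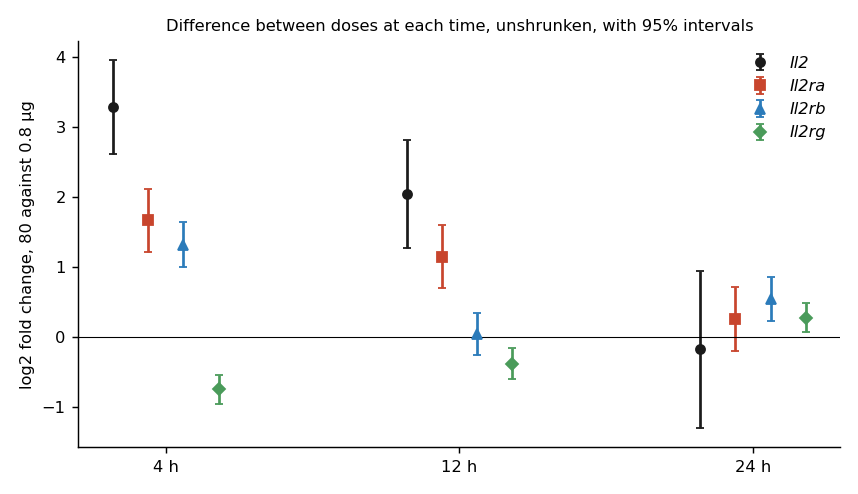
Difference between the high and the low dose (log2, before shrinkage) of the 4 genes at 4 h, 12 h and 24 h, with 95% intervals from DESeq2. Values above 0 are higher after the high dose. Il2 and Il2ra lie above 0 at 4 h and 12 h, Il2rb lies at 0.05 at 12 h and at 0.55 at 24 h, and Il2rg goes from -0.74 at 4 h to 0.28 at 24 h.

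Whether the effect of dose itself differed between times was tested on the 18 immunised libraries. For these tests alone, genes were called at an adjusted p under 0.05, with no fold threshold. The likelihood ratio test of dose by time called 4 of the 4 genes, against 10.3% of all genes tested, with adjusted p of 7.63e-05 for Il2, 4.01e-08 for Il2ra, 7.57e-08 for Il2rb and 2.32e-08 for Il2rg. From 4 h to 24 h, the dose effect became smaller for Il2 (by -3.46 ± 0.67 in log2, adjusted p = 1.18e-05), for Il2ra (-1.41 ± 0.22, adjusted p = 6.72e-09) and for Il2rb (-0.77 ± 0.20, adjusted p = 0.00314), and moved upwards for Il2rg (1.03 ± 0.16, adjusted p = 5.48e-09). All 4 were called in this contrast, against 8.47% of all genes. From 4 h to 12 h, the only one called by DESeq2 was Il2rb, with a change of -1.27 ± 0.20 (adjusted p = 1.68e-08, against 8.08% of all genes). The changes of Il2 (-1.24 ± 0.52, adjusted p = 0.134), Il2ra (-0.52 ± 0.21, adjusted p = 0.106) and Il2rg (0.37 ± 0.16, adjusted p = 0.149) were not called by DESeq2. However, edgeR called Il2 here (-1.25, adjusted p = 0.039), and DESeq2 called Il2 or Il2ra when certain single libraries were left out. From 12 h to 24 h, Il2ra (-0.88 ± 0.22, adjusted p = 0.00442) and Il2rg (0.66 ± 0.16, adjusted p = 0.00442) were called, against 2.77% of all genes, while Il2 (-2.22 ± 0.70, adjusted p = 0.0526) and Il2rb (0.50 ± 0.19, adjusted p = 0.164) were not. The Il2 change lies near the threshold and ranged from -2.55 to -1.40 when single libraries were left out.

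Within a dose, the 4 genes ran on different courses. From 4 h to 12 h after the low dose, Il2 fell by 2.98 in log2 (SE 0.38, adjusted p = 8.06e-14) and Il2rg fell by 1.50 (SE 0.11, adjusted p = 2.11e-40), while Il2rb rose by 1.98 (SE 0.16, adjusted p = 1.89e-32). Il2ra differed by -0.57 ± 0.23 (adjusted p = 0.0341) with overlapping libraries and was not called. Here 3 of the 4 genes were called, against 20.5% of all genes. Over the same hours after the high dose, Il2 fell by 4.22 (SE 0.34, adjusted p = 6.11e-34), Il2ra fell by 1.08 (SE 0.22, adjusted p = 9.7e-06) and Il2rg fell by 1.13 (SE 0.11, adjusted p = 1.23e-22), which is 3 of 4 against 24.8% of all genes. Il2rb had a difference of 0.72 ± 0.15 (adjusted p = 1.73e-05), under the fold threshold.

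From 12 h to 24 h after the low dose, Il2ra fell by 1.74 (SE 0.23, adjusted p = 6.45e-13). Il2 was called lower (log2 difference -1.46 ± 0.47, adjusted p = 0.00467), although 1 library at 24 h (11.4 normalised counts) was above the lowest at 12 h (10.8), and the call was lost when libraries were thinned to the smallest total (-1.02, adjusted p = 0.0685). Il2rb went from 811 to 405 normalised counts, a log2 difference of -1.00 ± 0.16 (adjusted p = 1.18e-09) that was just short of the fold threshold and passed it without replicate 1 (-1.01) or 3 (-1.00) of the 12 h group or replicate 3 of the 24 h group (-1.09), and Il2rg had a difference of 0.58 ± 0.11 (adjusted p = 8e-07). This made 2 of 4 called, against 26.6% of all genes. After the high dose, Il2 fell by 3.60 (SE 0.43, adjusted p = 5.09e-15), Il2ra fell by 2.61 (SE 0.23, adjusted p = 6.97e-29) and Il2rg rose by 1.24 (SE 0.11, adjusted p = 1.22e-27), which is 3 of 4 against 27.2% of all genes. Il2rb differed by -0.50 ± 0.15 (adjusted p = 0.00315, not called).

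Ratios between the receptor chains within a library do not depend on how libraries are scaled. They are compared here only between groups, since the chains differ in length and in how well their 3′ ends are read. The log2 ratio of Il2ra to Il2rb was -0.64 ± 0.42 (SD, n = 3) in the control, 2.68 ± 0.07 and 3.05 ± 0.22 at 4 h after the low and the high dose, 0.11 ± 0.26 and 1.23 ± 0.19 at 12 h, and -0.64 ± 0.17 and -0.91 ± 0.20 at 24 h. The balance of α to β chain RNA was thus highest at 4 h and overlapped the control again at 24 h. The log2 ratio of Il2ra to Il2rg was -4.57 ± 0.72 in the control, -0.39 ± 0.34 and 2.04 ± 0.06 at 4 h, 0.54 ± 0.29 and 2.08 ± 0.18 at 12 h, and -1.80 ± 0.29 and -1.79 ± 0.21 at 24 h. It was above the control in every immunised library, 24 h included. The log2 ratio of Il2rb to Il2rg was -3.93 ± 0.56 in the control, -3.08 ± 0.28 and -1.01 ± 0.23 at 4 h, 0.43 ± 0.11 and 0.85 ± 0.08 at 12 h, and -1.16 ± 0.21 and -0.88 ± 0.30 at 24 h. Here the low dose at 4 h, with a highest control value of -3.42 and a lowest immunised value of -3.40, was only just apart from the control.

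Between doses, the Il2ra to Il2rg ratio was higher after the high dose by 2.44 in log2 at 4 h and by 1.54 at 12 h, and the doses differed by 0.01 at 24 h. The Il2rb to Il2rg ratio was higher by 2.07 and 0.42 at 4 h and 12 h, and the Il2ra to Il2rb ratio by 0.37 and 1.12. At 4 h and 12 h, none of these 3 ratios overlapped between doses, and each had the smallest p that 3 against 3 libraries allow (two-sided exact permutation test over 20 relabellings, p = 0.1, adjusted p = 0.15 over 9 tests). This test cannot reach 0.05 with 3 against 3 libraries. At 24 h all 3 ratios overlapped between doses, and the exact permutation p was 0.2, 1 and 0.2 for Il2ra to Il2rb, Il2ra to Il2rg and Il2rb to Il2rg.

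**Figure D4:**
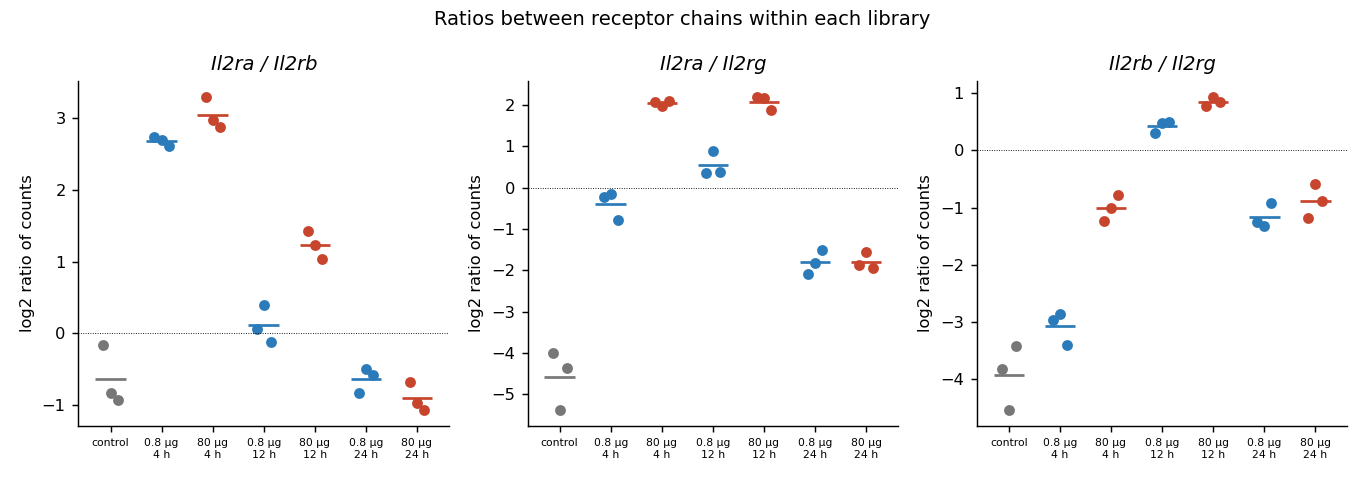
Log2 ratios of counts between receptor chains in each of the 21 libraries, by group, with group means as lines. Only differences between groups can be read. The Il2ra to Il2rb ratio is highest at 4 h (2.61 to 3.30), and at 4 h and 12 h each ratio is higher after the high dose than after the low dose in every library.

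The likeness of the 4 genes over the 21 libraries was described with Pearson's r of the deposited log2 values. The libraries share their groups, so these values mostly describe the 7 group means. Il2 and Il2ra had an r of 0.827, and Il2ra and Il2rb one of 0.644. Il2 had an r of 0.17 with Il2rb and 0.0988 with Il2rg, and Il2rg had -0.211 with Il2ra and -0.625 with Il2rb. Among 8749 other genes whose mean normalised count was 20 or more, the 3 most like Il2 were Ptpn4, a tyrosine phosphatase (r = 0.964), Furin, a protease that cuts proproteins (0.963), and Hilpda, a lipid droplet protein (0.963). The 3 most like Il2ra were the transcription factors Irf4 (0.979) and Irf8 (0.978) and the endosome protein Eea1 (0.978). The 3 most like Il2rb were Aurkaip1 (0.967), Cox5a, a subunit of cytochrome c oxidase (0.945), and Mrps11, a mitochondrial ribosomal protein (0.937). For Il2rg they were the adaptor Grap (0.908), Irf2bp2 (0.897) and Sidt2 (0.897).

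The other genes of the pathway were taken as 4 lists and compared between doses. Among γ chain cytokines and the private chains of their receptors, 10 genes were listed, 6 had enough counts to be fitted and 5 were tested. At 4 h, 2 were higher after the high dose and 0 lower, with a median log2 difference of 0.36 over the 5 (-0.02 over all genes), where 5.85% of all genes were called in either direction. These were Il21, which encodes another γ chain cytokine, and Il7r, the IL-7 receptor α chain. Il21 was at least 44.9-fold higher after the high dose, computed against a floor of 3 counts per library because every low dose library was at or under it. Il7r had 64.5 against 14.5 normalised counts (log2 difference 2.04 ± 0.35, adjusted p = 1.43e-07), while its level in the control was 2630. At 12 h and 24 h, Il21 was the only one of the 5 called, against 2.79% and 1.56% of all genes. It had 204 against 2.39 normalised counts at 12 h (log2 difference 5.97 ± 0.53, adjusted p = 1.37e-21) and was at least 7.24-fold higher at 24 h. The medians were 0.15 at 12 h and 0.54 at 24 h (0.01 and 0.02 over all genes).

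Of 12 genes of IL-2 receptor signalling, JAK1, JAK3 and STAT5 among them, 11 were tested and 0 were called between doses at 4 h, 12 h or 24 h, with medians of -0.00, -0.05 and 0.14 (-0.02, 0.01 and 0.02 over all genes). Over all genes, 5.85%, 2.79% and 1.56% were called, so that 0 of 11 is near the background. Jak1 had 1370 against 1560 normalised counts at 4 h (log2 difference -0.19 ± 0.10, adjusted p = 0.287) and Stat5a had 1480 against 1230 (0.26 ± 0.12, adjusted p = 0.143). Stat3 came nearest, at 0.94 in log2 at 4 h (adjusted p = 5.89e-09) and -0.75 at 12 h (adjusted p = 2.28e-05), both short of the fold threshold. With no adjustment, the DESeq2 p was under 0.05 for 3, 2 and 0 of these genes at 4 h, 12 h and 24 h. The share of all genes under that unadjusted limit was not computed. With edgeR, 0 of these genes were called at each time.

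Of 11 IL-2 and STAT5 targets and feedback genes, 4 were called higher after the high dose at 4 h, 4 at 12 h and 3 at 24 h. At no time were any called lower (0 of 11), against 5.85%, 2.79% and 1.56% of all genes called in either direction. The medians were 0.97, 0.82 and 0.06 (-0.02, 0.01 and 0.02 over all genes). Socs3, an inhibitor of cytokine signalling, had 344 against 17.2 normalised counts at 4 h (log2 difference 4.06 ± 0.46, adjusted p = 3.82e-16), 132 against 41.8 at 12 h (1.55 ± 0.44, adjusted p = 0.0115) and 224 against 84.6 at 24 h (1.34 ± 0.44, adjusted p = 0.0411). Prdm1, which encodes the repressor Blimp-1, had 26 against 2.57 at 4 h (2.86 ± 0.55, adjusted p = 2.34e-05), 99 against 9.63 at 12 h (3.20 ± 0.43, adjusted p = 3.42e-11) and 43.1 against 16.2 at 24 h (1.36 ± 0.41, adjusted p = 0.0241). In the control, Socs3 was at 230 and Prdm1 at 42.8 normalised counts. At 4 h both were called lower than the control after the low dose (-3.51 ± 0.46 for Socs3, adjusted p = 3.77e-13, and -3.53 ± 0.55 for Prdm1, adjusted p = 9.38e-09) and neither was called after the high dose. The kinase gene Pim1 was higher after the high dose at 12 h by 1.50 ± 0.16 (736 against 256, adjusted p = 1.07e-18). It was also called at 24 h (798 against 370, 1.10 ± 0.16, adjusted p = 6.29e-10). At 4 h it differed by 0.97 ± 0.15 (3460 against 1760, adjusted p = 3.44e-09), just under the fold threshold. Cish, a STAT5 target that restrains IL-2 signalling, had 1150 against 793 at 4 h (0.53 ± 0.17, adjusted p = 0.0161) and was not called.

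Of 14 factors that act on Il2 transcription, 3 were called higher and 2 lower after the high dose at 4 h. At 12 h, 0 were called higher and 2 lower, and at 24 h 0 higher and 1 lower. Over all genes, 5.85%, 2.79% and 1.56% were called in either direction. The medians were 0.11, 0.00 and -0.02 (-0.02, 0.01 and 0.02 over all genes). Those higher at 4 h included Crem, a cAMP-responsive factor (233 against 30.1 normalised counts, log2 difference 2.91 ± 0.29, adjusted p = 2.57e-21), and Junb, an AP-1 subunit (1660 against 790, 1.07 ± 0.16, adjusted p = 6.48e-10). Rel, the NF-κB subunit c-Rel, was lower after the high dose at 4 h, with 1510 against 3130 normalised counts (-1.05 ± 0.13, adjusted p = 1.35e-14), and at 12 h, with 182 against 482 (-1.39 ± 0.14, adjusted p = 8.28e-20). Egr1, an early TCR response factor, was lower at each time. It had 179 normalised counts after the high dose and 559 after the low dose at 4 h (-1.62 ± 0.23, adjusted p = 1.64e-10), 53.1 and 154 at 12 h (-1.51 ± 0.25, adjusted p = 2.5e-07), and 76.8 and 183 at 24 h (-1.22 ± 0.24, adjusted p = 4.93e-05). In the control, Rel was at 207 and Egr1 at 178 normalised counts. At 4 h, Rel was called higher than the control after the low dose (3.90 ± 0.14) and the high dose (2.85 ± 0.14). After the high dose, Egr1 differed from the control by 0.01 ± 0.24 at 4 h and was called lower at 12 h (-1.72 ± 0.25) and 24 h (-1.18 ± 0.24). NFAT factor Nfatc1 had 1740 against 2520 at 4 h (-0.54 ± 0.08, adjusted p = 5.64e-09), under the fold threshold. Its difference was 0.23 ± 0.09 at 12 h (adjusted p = 0.1) and 0.19 ± 0.09 at 24 h (adjusted p = 0.253). Rela, another NF-κB subunit, was higher at 4 h (439 against 256, 0.78 ± 0.13, adjusted p = 2.25e-08), also under the fold threshold. Nfkb1 differed by 0.31 at 4 h, -0.78 at 12 h and -0.47 at 24 h and was not called.

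**Figure D5:**
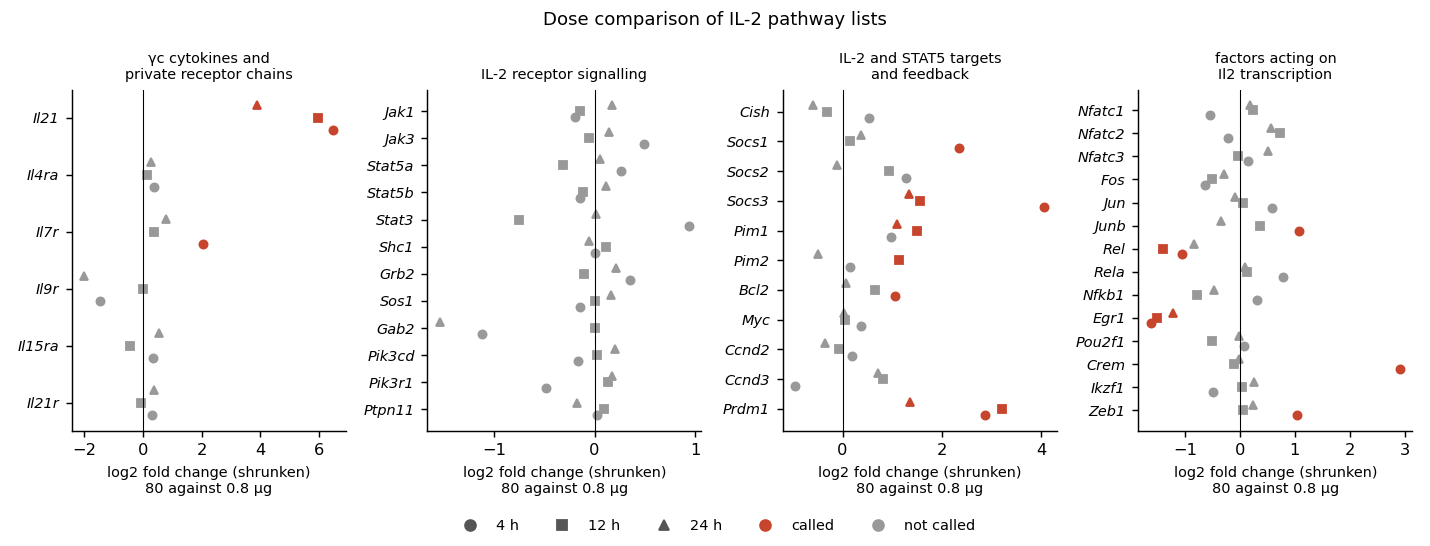
Shrunken log2 differences between the high and the low dose for the genes of the 4 lists at 4 h (circles), 12 h (squares) and 24 h (triangles). Red marks called genes. Il21, Socs3 and Prdm1 lie to the right at each time, no gene of the signalling list is red, and Egr1 lies to the left at each time.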

How the data were processed

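CD4+ T cells were sorted by Timer fluorescence and RNA was sequenced from forward QuantSeq 3′ mRNA libraries. The authors trimmed reads with Bbduk, aligned them to GRCm38 (mm10) with STAR 2.5.2a and made the deposited counts per gene with HTSeq. The annotation release and the strand setting are not given in the sources used here. Per the authors, the deposited log2 values are regularised logs (rlog) from DESeq2, made once genes with few reads had been left out. They were used for correlations and as an alternative.

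Here, 15300 genes with at least 10 counts over all samples were fitted with DESeq2 1.42.0 (R 4.3.3), with 1 coefficient per group over the 21 samples. The study's methods name DESeq2 and shrinkage with a normal prior but give no design formula. Fold changes were shrunken with the normal prior, p was adjusted over all genes, and genes were called at adjusted p under 0.05 and an absolute log2 fold change above 1. Genes to which DESeq2 gave no adjusted p are not counted as tested. Dose by time was tested in the 18 immunised samples by likelihood ratio and by Wald tests of the differences between dose effects (unshrunken), with calls at adjusted p under 0.05 alone. Ratios used counts with a pseudocount of 0.5. Alternatives used edgeR 4.0.16 and limma 3.58.1.

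Groups came from the sample titles. Per the study's methods, replicates were separate mice, stained with different CD4 fluorochromes and sorted in parallel. Libraries of a group differed from one another by more than sampling noise. The 4 genes, 4 pathway lists and 6 marker lists were chosen with earlier results of these data known. From each pathway list, up to 2 called genes each way per dose comparison were named, with the largest changes, and for each of the 4 genes the 3 others most like it. Pim1, Jak1, Stat3, Stat5a, Cish, Ccnd3, Nfatc1, Rela and Nfkb1 are outside this rule and were named after their values were seen. Gene locations come from GENCODE vM21 (GRCm38). Promoter sequences, found for 3 of the 4 genes, are from RefSeq. The 95% intervals come from the DESeq2 fit and include the spread between mice, while the floor of 3 counts covers counting error only.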

Additional observations from a re-analysis of the deposited data

Results flagged for a closer look

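The dose effect differed between 4 h, 12 h and 24 h for each of the 4 genes by the DESeq2 likelihood ratio test on the 18 immunised libraries, which is a test of the difference itself. The adjusted p was 7.63e-05 for Il2 and ranged from 1.42e-05 to 0.00314 over the alternatives, with the high dose above the low dose in 3 of 3 libraries at 4 h and 12 h and overlapping at 24 h. For Il2ra it was 4.01e-08 (2.61e-11 to 3.1e-06), with the same order of libraries. For Il2rb it was 7.57e-08 (8.06e-10 to 1.77e-05), with the high dose above the low dose in 3 of 3 libraries at 4 h and 24 h and overlapping at 12 h. For Il2rg it was 2.32e-08 (3.69e-14 to 3.24e-05), with the high dose below the low dose in 3 of 3 libraries at 4 h and 12 h and overlapping at 24 h. The sorting gate changed with time, so that the time and the gate cannot be told apart in these tests.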

How the results depend on the processing

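Of the values and calls about the 4 genes under all alternatives, 1449 kept their direction and their side of the threshold, 28 passed the threshold only under the alternative, 1 lost it, 3 counts moved and 17 changed sign. No pairing of the samples by replicate number was seen, which does not show that none existed. Samples with the same replicate number had a median correlation of -0.01 of their deviations, as did samples with other numbers, and a fit with a replicate block changed no call of the 4 genes and gave 611, 288 and 138 genes called between doses at 4 h, 12 h and 24 h in place of 635, 311 and 151. The values that changed sign were uncalled ones near 0. Il2 at 24 h after the low dose against control was -0.09 with limma on the log2 values and -0.51 to 0.37 without single libraries. After the high dose it was 0.11 with thinned libraries and -0.42 to 0.22 without single libraries. Il2rg at 24 h after the high dose was 0.00 with edgeR, 0.02 thinned and -0.10 to 0.11 without single libraries. Between doses, Il2 at 24 h ranged from -0.53 to 0.36 and Il2rb at 12 h from -0.02 to 0.13 without single libraries, and the log2 ratio of Il2ra to Il2rg at 24 h from -0.13 to 0.16.

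With adjusted p alone and no fold threshold, calls were added for Il2rg against control after the low dose (0.62 at 4 h, -0.88 at 12 h, -0.29 at 24 h), Il2rg between doses (-0.74 at 4 h, -0.37 at 12 h), Il2rb between doses at 24 h (0.55, making 1 call in place of 0), Il2ra from 4 h to 12 h after the low dose (-0.57), Il2rg (0.58) and Il2rb (-1.00) from 12 h to 24 h after the low dose (4 calls in place of 2), and Il2rb after the high dose from 4 h to 12 h (0.72) and from 12 h to 24 h (-0.50). The all-gene counts then became 4551 in place of 2185 and 5048 in place of 2615 (24 h against control, low and high dose), 1301, 699 and 573 in place of 635, 311 and 151 (doses), 4822 and 5689 in place of 2532 and 3434 (steps in time, low dose), and 5415 and 5907 in place of 3130 and 3601 (high dose). Fitting only the 6 samples compared gave 145 and 83 genes between doses at 12 h and 24 h.

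Il2rb from 12 h to 24 h after the low dose passed the fold threshold with edgeR (-1.02), in the fit of 6 samples (-1.07) and unshrunken (-1.00), and was -1.09 to -0.94 without single libraries. In thinned libraries the Il2 call of that step was lost (-1.02), leaving 1 call. For the change of the dose effect from 4 h to 12 h, Il2 was called with edgeR (-1.25) and without the low dose 24 h replicate 3 (-1.25, range -1.51 to -0.98), and Il2ra without the low dose 4 h replicate 2 (-0.70) or 12 h replicate 3 (-0.64, range -0.70 to -0.33). From 12 h to 24 h, Il2 was called with no low-count filter (-2.22) and without low dose 4 h replicate 3 or high dose 4 h replicate 1 (-2.22 each), low dose 12 h replicate 3 (-2.32), high dose 12 h replicate 1 (-2.35) or low dose 24 h replicates 1 (-2.55) or 2 (-2.47), and was -1.40 without low dose 24 h replicate 3. The all-gene count of that contrast was 254, and 151 without low dose 12 h replicate 1. The cause of these shifts was not tested beyond the setting itself. Depth limits Il2 in the control and at 24 h, where it rests on 3 to 11 reads per library.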
